A study of Mus musculus with 26 samples.

Results

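The piRNA pathway genes described here are 10 named genes: Piwil2, Piwil4, Pld6, Mov10l1, Asz1, Tdrd1, Tdrd5, Tdrd9, Mael and Gtsf1. They were chosen by name and not by a rule on measured values, but with earlier results of these data known. All 10 were found by symbol and Ensembl gene identifier among the 57186 genes of the count table of all Fgf9 deletions and among the 31053 genes of the Meis1 count table. RNA was measured in 26 samples of XY mouse gonads at E13.5 (embryonic day), which had been cut free of the mesonephros before freezing. There were 3 wild-type samples (WT), samples of 4 deletion genotypes of Fgf9 named Δ306 (3), Δ225 (6), Δ104 (4) and Δ93 (6), and 4 samples of a Meis1 knockout (Meis1 KO). Fgf9 encodes a secreted growth factor that acts in the developing testis, and Meis1 encodes a homeobox transcription factor. The labels give neither the ends of the deletions, nor whether 1 or both alleles carry them, nor the strain, litter, parents or number of gonads of a sample, nor how the Meis1 knockout was made. The p-values therefore measure only the spread between these samples. One deposited count table holds WT and Δ306 alone, and whether the other groups were prepared together with them is not given in the sources used here.

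piRNAs are small RNAs that guide PIWI proteins to transposon transcripts in germ cells, where the targets are cut or their genes are silenced by DNA methylation. Their precursors are unwound, cut at the surface of mitochondria and handed to PIWI proteins in cytoplasmic granules that are held together by Tudor domain proteins. In the fetal mouse testis the pathway is set up as male germ cells stop dividing and before they methylate their DNA again, while germ cells of the fetal ovary enter meiosis.

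A gonad holds germ cells among many somatic cells, so each library was first checked for germ-cell RNA. Values are in CPM (counts-per-million) relative to library sizes scaled by the trimmed mean of M values (TMM). WT replicate 1 stood apart: Ddx4, a helicase gene of germ cells of both sexes, was at 4.27 CPM there and at 81.3 and 139 CPM in WT replicates 2 and 3. Dazl, another germ-cell gene, was at 4.30 CPM there against 188 and 284 CPM. Over 8 germ-cell markers, all 8 of which were found, the summed level was 23.2 CPM in WT replicate 1, 185 CPM in Δ104 replicate 3 and 406 to 1291 CPM in the other 20 libraries of the deletion table. In bulk samples fewer cells of a type and less RNA per cell cannot be told apart. The main results against WT are therefore also given without WT replicate 1, and some results without both of these libraries. Fgf9 was at 9.21 to 9.85 CPM in WT and at 2.17 to 6.98 CPM in 18 of the 19 deletion libraries, with Δ225 replicate 3 at 16.5 CPM, and Meis1 was at 0.201 to 0.695 CPM in the KO against 62.1 to 109 CPM in WT. Ddx3y, a Y-linked gene, was at 0 to 0.0883 CPM in Δ306 replicate 3, Δ225 replicate 4 and Δ93 replicates 4 and 5 although all samples carry the label XY, and at 0.954 CPM or more in the other 18 libraries. The X-linked gene Xist reached at most 0.185 CPM in WT, 0.671 CPM in Δ306, 3.12 CPM in Δ225, 0.584 CPM in Δ104 and 6.42 CPM in Δ93. The sex of the libraries with little Ddx3y was not tested. Of the somatic markers, the 7 Sertoli-cell markers summed to 1883 to 2335 CPM in WT and 56.1 to 834 CPM in Δ93, and the 6 pre-granulosa markers to 64.4 to 112 CPM in WT and 430 to 1088 CPM in Δ93. Total counts per library were 11582619 to 53392393 in the deletion table and 35468633 to 51732897 in the Meis1 table.

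A DNA motif upstream of the start was found in 5 of the members. Promoter sequences came from RefSeq on GRCm38.p6, as windows of 300 bases around each annotated start. They covered 9 of the 10 members in 13 windows. The E-box CACGTG, a palindrome that reads the same on both strands, lay in a window of Mael, Mov10l1, Pld6, Tdrd1 and Tdrd9, which is 5 of 9 members, against 8.09% of all 27025 genes and 7.15% of all 32851 windows. The stretches below are printed 5′ to 3′ on the gene's strand, with CACGTG in capitals.
Mael: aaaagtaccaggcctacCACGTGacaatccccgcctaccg
Mov10l1: ccttCACGTGctaaccgccaacctctc
Pld6: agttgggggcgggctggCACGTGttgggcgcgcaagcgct
Tdrd1: gtgggtggggctgcgcgCACGTGggagt
Tdrd9, first: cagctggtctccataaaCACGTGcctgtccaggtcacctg
Tdrd9, second: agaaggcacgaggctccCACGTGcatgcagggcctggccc
These are chr1:166238945-166238984 on the minus strand for Mael, chr15:88982744-88982770 on the plus strand for Mov10l1, chr11:59787668-59787707 on the minus strand for Pld6 and chr19:56826181-56826208 on the plus strand for Tdrd1. The Tdrd9 stretches are chr12:111971377-111971416 and chr12:111971447-111971486 on the plus strand. The motif began 223 bases before the start of Mael, 246 before Mov10l1, 33 before Pld6, 11 before Tdrd1, and 165 and 95 before Tdrd9. No window of Tdrd5, Asz1, Piwil4 or Gtsf1 held these letters. A second sequence, GGCGGGA, searched on both strands, lay in the window of Mael alone among the members and in 11.3% of all windows. The window of the reference gene Ddx4 held both sequences. The members' windows were rich in CpG: the median ratio of observed to expected CpG was 0.674, against 0.384 over all windows. The Tdrd5 window, at chr1:156303299-156303598 on the minus strand, held the most with 48 CpG in 300 bases. This window, set by the RefSeq start, lies inside the GENCODE gene body of Tdrd5 (chr1:156255296-156303664). It therefore does not cover the bases before the GENCODE start. A match of letters is a description of the sequence, not evidence of a bound site, and its relation to the members' levels was not tested.

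Levels differed between members by over an order of magnitude. Counted per kilobase of exon in the deletion table, Mael, which encodes an HMG-box protein of the germ granules, was highest with a median of 22.1 CPM per kb over the 22 libraries. Mov10l1, the helicase that binds piRNA precursors, followed with 10.4 CPM per kb, Piwil2 with 9.30 and Asz1 with 7.14. Tdrd5 (3.31), Pld6 (3.27) and Tdrd1 (2.78) were lower, and Gtsf1 (0.531), Piwil4 (0.450) and Tdrd9 (0.370), in CPM per kb, were lowest. Within each gene the libraries spanned a wide range, so neighbours in this order overlapped: Mael ran from 0.174 to 92.3 CPM per kb and Piwil4 from 0.0108 to 4.96. Mael lies at chr1:166201201-166238747, Mov10l1 at chr15:88982909-89055152, Piwil2 at chr14:70372477-70429383, Asz1 at chr6:18050964-18109061, Tdrd5 at chr1:156255296-156303664, Pld6 at chr11:59783897-59787645, Tdrd1 at chr19:56826209-56870012, Gtsf1 at chr15:103402405-103430470, Piwil4 at chr9:14696230-14740733 and Tdrd9 at chr12:111971559-112068854 (gene bodies, GENCODE M21 on GRCm38).

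**Figure D1:**
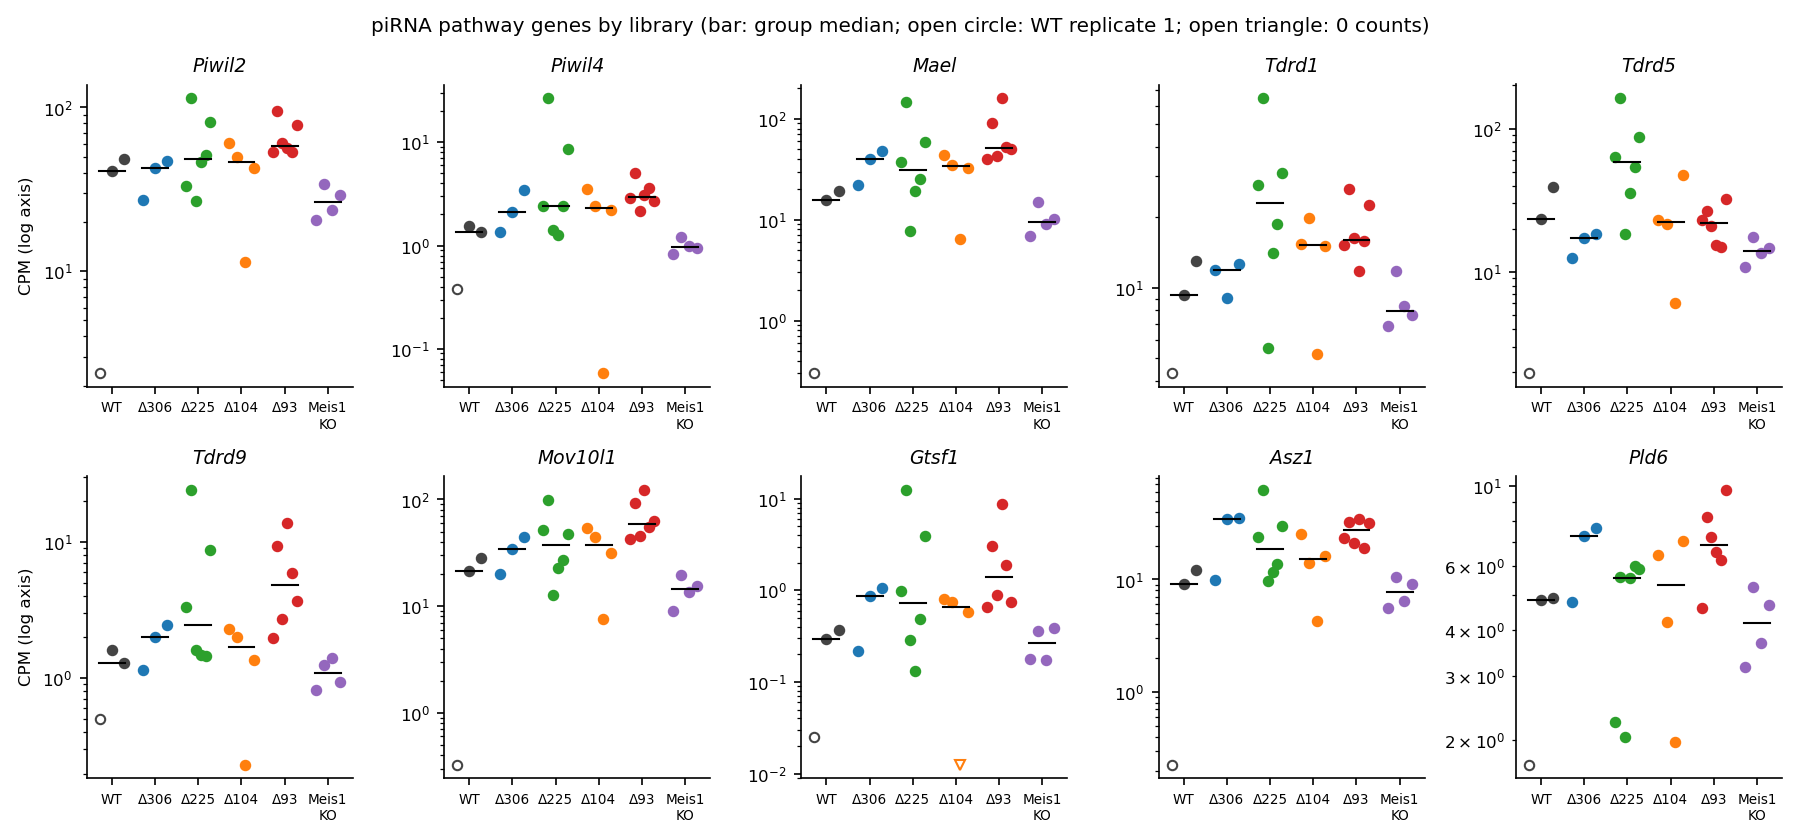
Level of each of the 10 genes in every library, in CPM on a log axis, by group (points: libraries, bar: group median, open circle: WT replicate 1, open triangle: 0 counts of Gtsf1 in Δ104 replicate 3). WT and deletion values come from the deletion table and Meis1 KO values from the Meis1 table, which were normalised separately. WT replicate 1 is at or near the bottom of every panel, and the green Δ225 point at the top of most panels is replicate 2.

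The members varied together across the 22 libraries. On log2 CPM, the correlation between 2 members was highest for Mael and Mov10l1 (r = 0.985) and lowest for Tdrd5 and Pld6 (r = 0.433), and the correlation with Ddx4 ran from 0.671 for Tdrd9 to 0.973 for Mov10l1. These correlations are across 22 libraries that share groups and include the libraries with little germ-cell RNA, and they are given as a description.

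The WT library with little Ddx4 split the members into 2 kinds. The level in WT replicate 1, as a percentage of the mean of WT replicates 2 and 3, was 1.32% for Mov10l1, 1.74% for Mael, 2.13% for Asz1, 5.32% for Piwil2 and 6.29% for Tdrd5, close to Ddx4 (3.88%) and Dazl (1.82%). Gtsf1 was at 7.60%, which rests on 1 count. By contrast Tdrd1 was at 38.8%, Pld6 at 35.1%, Tdrd9 at 34.6% and Piwil4 at 26.2%, all above Dnd1 (14.9%), a germ-cell gene with the highest share among the 3 reference genes. In counts, WT replicate 1 had 172 of Tdrd1, 68 of Pld6, 20 of Tdrd9 and 15 of Piwil4, against 12 of Mael, 13 of Mov10l1 and 9 of Asz1. This is 1 library, and the difference between the 2 kinds was not tested.

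**Figure D2:**
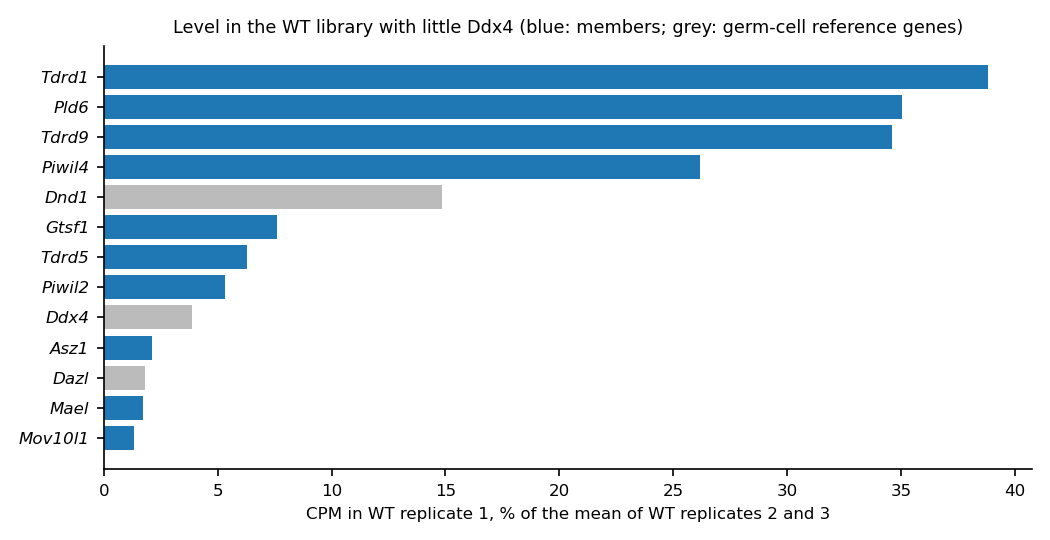
Level in WT replicate 1 as a percentage of the mean of WT replicates 2 and 3, for the 10 piRNA pathway genes (blue) and 3 germ-cell reference genes (grey). Tdrd1, Pld6, Tdrd9 and Piwil4 stand at 26.2% to 38.8%, and Mov10l1, Mael and Asz1 at 1.32% to 2.13%.

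Of the PIWI proteins, Piwil2 (MILI) loads primary piRNAs and cuts transposon RNA, and Piwil4 (MIWI2) carries piRNAs into the nucleus of fetal male germ cells. Piwil2 was at 2.39, 41.0 and 48.7 CPM in the WT libraries, 27.4, 42.7 and 47.2 CPM in Δ306 and 60.7, 49.6, 11.3 and 42.8 CPM in Δ104. In Δ225 it ran from 26.8 through a median of 48.7 to 114 CPM, and in Δ93 from 53.5 through 58.4 to 94.6 CPM. Every Δ93 library was above every WT and Δ306 library in Piwil2, while Δ225 overlapped all groups. Piwil4 was far lower, at 0.377, 1.53 and 1.35 CPM in WT, 1.36, 2.11 and 3.43 CPM in Δ306 and 3.53, 2.41, 0.0581 and 2.19 CPM in Δ104. The 6 Δ225 libraries had 2.44, 26.7, 1.403, 1.26, 2.44 and 8.64 CPM of Piwil4, and the 6 Δ93 libraries 2.17 to 5.03 CPM with a median of 2.98 CPM. Δ225 replicates 2 and 6 were above every other library, and the other 4 Δ225 libraries lay among those of the other groups.

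Pld6 (MitoPLD) is the mitochondrial nuclease that makes the 5′ ends of piRNAs, Mov10l1 is the helicase that feeds precursors to it, and Asz1 (GASZ) is a mitochondrial scaffold protein of the granules. Mov10l1 was at 0.327, 21.2 and 28.3 CPM in WT, 19.8, 34.2 and 44.0 CPM in Δ306 and 53.8, 44.3, 7.62 and 31.2 CPM in Δ104. It ran from 12.6 through 37.5 to 98.4 CPM in Δ225 and from 42.8 through 58.8 to 123 CPM in Δ93, so that every Δ93 library was above every WT library. Asz1 was at 0.226, 9.13 and 12.1 CPM in WT, 9.83, 34.7 and 35.0 CPM in Δ306, 25.2, 14.1, 4.30 and 16.2 CPM in Δ104, 9.77 to 62.8 CPM in Δ225 and 19.2 to 34.8 CPM in Δ93. All 6 Δ93 libraries exceeded the 3 WT libraries in Asz1 as well. Pld6 varied least, at 1.71, 4.84 and 4.91 CPM in WT, 4.78 to 7.67 CPM in Δ306, 2.03 to 6.00 CPM in Δ225, 1.98 to 7.05 CPM in Δ104 and 4.62 to 9.75 CPM in Δ93. Its groups overlapped throughout.

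The Tudor domain proteins bind methylated arginines of PIWI proteins and order the granules. Tdrd1 was at 4.32, 9.28 and 13.0 CPM in WT, 11.9, 9.04 and 12.6 CPM in Δ306, 15.4, 19.8, 5.23 and 15.1 CPM in Δ104, 5.51 to 64.7 CPM in Δ225 and 11.8 to 26.4 CPM in Δ93. Tdrd5, which the germ granules need to form, was at 1.96, 23.4 and 38.9 CPM in WT, 12.5, 17.3 and 18.3 CPM in Δ306 and 22.9, 21.4, 6.05 and 47.6 CPM in Δ104. In Δ225 Tdrd5 was at 63.0, 163, 18.2, 35.6, 53.6 and 87.1 CPM, and in Δ93 at 23.1, 26.5, 20.9, 15.4, 15.0 and 32.1 CPM. All Δ225 libraries except replicate 3 were above all Δ93 libraries in Tdrd5. Tdrd9, a helicase that works with Piwil4, was at 0.502, 1.61 and 1.29 CPM in WT, 1.14, 1.99 and 2.44 CPM in Δ306 and 2.30, 2.02, 0.233 and 1.36 CPM in Δ104. It was at 3.32, 24.0, 1.60, 1.48, 1.45 and 8.64 CPM in Δ225 and at 1.98, 9.33, 2.71, 13.7, 5.86 and 3.70 CPM in Δ93. High Tdrd9 was thus found in 2 libraries of each of these groups.

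Mael and Gtsf1, a small zinc-finger protein that PIWI proteins need for silencing and cleavage, complete the set. Mael was at 0.301, 15.5 and 19.1 CPM in WT, 22.1, 39.6 and 47.5 CPM in Δ306, 43.5, 35.1, 6.40 and 32.7 CPM in Δ104, 37.2, 148, 7.64, 19.3, 25.5 and 58.4 CPM in Δ225 and 40.3, 89.9, 42.4, 159.9, 52.6 and 49.8 CPM in Δ93. Every Δ306 and Δ93 library was above every WT library in Mael, while Δ225 overlapped all groups. Gtsf1 was at 0.0251, 0.291 and 0.369 CPM in WT (1, 15 and 14 counts), 0.219, 0.863 and 1.06 CPM in Δ306 and 0.805, 0.737, 0 and 0.584 CPM in Δ104. It was at 0.976, 12.5, 0.290, 0.132, 0.492 and 3.91 CPM in Δ225 and at 0.660, 3.08, 0.889, 8.81, 1.90 and 0.740 CPM in Δ93. In all, 7 of the 10 members (Asz1, Gtsf1, Mael, Mov10l1, Piwil2, Piwil4 and Tdrd9) were higher in every Δ93 library than in every WT library, as were 12.1% of all genes tested, and 1 (Mael) was so in Δ306, as were 19.2% of all genes. The high values of Piwil4, Tdrd9, Mael and Gtsf1 fell in the same few libraries, Δ225 replicates 2 and 6 for all 4 genes and Δ93 replicates 2 and 4 for Tdrd9, Mael and Gtsf1.

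These libraries also stood apart in some genes of germ-cell fate. In Δ225 replicates 2 and 6, Nanos2, an RNA-binding protein of male germ cells, was at 8.42 and 6.25 CPM and the DNA methylation cofactor Dnmt3l at 4.69 and 1.68 CPM, against 0 to 2.60 CPM and 0 to 0.258 CPM in the other 20 libraries of the table. In Δ93 replicates 2 and 4, Stra8, which acts at meiotic entry, was at 219.6 and 324 CPM, against 0 to 128 CPM elsewhere. Over the 9 meiotic markers, all found, the summed level was 1168 and 2200 CPM in these 2 libraries, 376 to 700 CPM in the other Δ93 libraries, 212 to 471 CPM in Δ306, 45.8 to 458 CPM in Δ104, 68.7 to 561 CPM in Δ225 and 15.1 to 131 CPM in WT, with Stra8 at 0 in WT replicate 1 and Δ225 replicate 3. Over the 5 of 6 male germ-cell markers found, it was 55.4 to 111 CPM in Δ225, 7.23 to 111 CPM in WT, 1.203 to 45.1 CPM in Δ93, 2.05 to 21.3 CPM in Δ306 and 1.94 to 121 CPM in Δ104, with Nanos2 at 0 in 11 libraries. Within Δ225 this male germ-cell sum was lowest in replicate 2, at 55.4 CPM, and was 94.9 CPM in replicate 6. High Nanos2 and Dnmt3l in these 2 libraries thus did not go with a high sum. The part of germ-cell fate or stage in the members' levels was not tested.

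Against WT no member was called in any deletion by edgeR's quasi-likelihood test with Benjamini-Hochberg adjustment over all genes at an adjusted p under 0.05. All 10 members had positive log2 fold changes in Δ225, Δ104 and Δ93, and 9 of 10 in Δ306. In Δ93 the median was 1.75 over the members against 0.06 over all genes, and the largest were Gtsf1 (3.55, SE 1.39, adjusted p 0.0922), Mael (2.64, SE 0.94, adjusted p 0.0660), Tdrd9 (2.45, adjusted p 0.0811) and Mov10l1 (2.08, adjusted p 0.0980), while Tdrd5 was at 0.05 (SE 0.65, adjusted p 0.973). In Δ225 the median was 1.76 against 0.04 over all genes, led by Gtsf1 (3.73), Piwil4 (2.72), Tdrd9 (2.57) and Mael (2.08), with adjusted p from 0.195 to 0.760 over the 10. In Δ306 the median was 0.88 and in Δ104 0.79. The share of all tested genes called was 6.43% for Δ306, 0.209% for Δ225, 0.0610% for Δ104 and 14.1% for Δ93, so a count of 0 in 10 members is near the background in each. At an unadjusted p under 0.05 there were 1 of 10 members in Δ306, 7 in Δ225, 0 in Δ104 and 6 in Δ93, where 21.9%, 16.1%, 15.7% and 28.5% of all genes tested were.

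DESeq2 on the same counts called 4 members higher in Δ225 than in WT (Gtsf1, Piwil4, Tdrd1 and Tdrd9, adjusted p 0.0321 to 0.0430) and 5 higher in Δ93 (Asz1, Gtsf1, Mael, Mov10l1 and Tdrd9, adjusted p 0.0108 to 0.0439), and none in Δ306 or Δ104. DESeq2 called 3.43% of all genes in Δ225, 19.9% in Δ93, 11.8% in Δ306 and 2.66% in Δ104. The authors' deposited table, which gives WT over deletion, had an adjusted p under 0.05 for 3 of these in Δ225 (Tdrd1, log2 fold change −1.64; Piwil4, −2.75; Tdrd9, −2.60) and for the same 5 in Δ93 (Gtsf1, −3.58; Mael, −2.66; Tdrd9, −2.47; Mov10l1, −2.11; Asz1, −1.95), where 3.55% and 17.9% of the genes with an adjusted p in that table were under 0.05. The WT library with little germ-cell RNA enters all of these folds, because the comparisons share the 3 WT libraries. Without WT replicate 1, edgeR's median for the members fell to 1.25 in Δ225, 1.27 in Δ93, 0.39 in Δ306 and 0.37 in Δ104. No member was then called, against 2.25% of genes for Δ306, 0.0589% for Δ225, 0.00421% for Δ104 and 6.25% for Δ93, and only Δ93 had members at an unadjusted p under 0.05, 2 of 10, where 22.8% of all genes were. With Δ104 replicate 3 left out as well, 4 members in Δ225 and 3 in Δ93 had an unadjusted p under 0.05, and 0 were called. Of 23768 genes tested, 2672 and 5539 were at that threshold, and 6 and 1677 were called. Ddx4 itself had a log2 fold change of 1.25 in Δ93 against WT (SE 0.63, adjusted p 0.198).

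**Figure D3:**
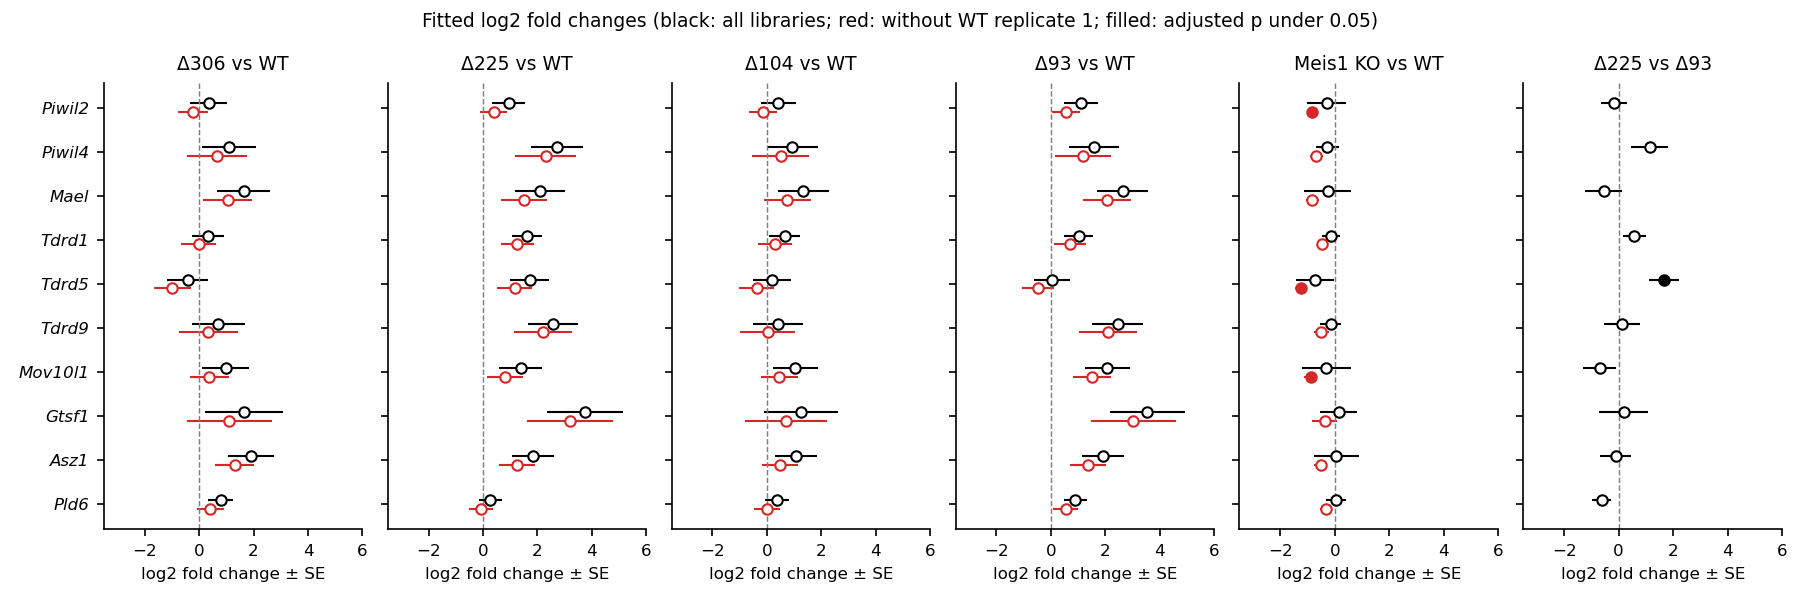
Fitted log2 fold change ± SE of each of the 10 genes in 6 comparisons (black: all libraries, red: without WT replicate 1, filled: edgeR adjusted p under 0.05). The black points lie right of 0 for nearly all members in the deletions against WT, move left in red, and are filled only for Tdrd5 in Δ225 against Δ93, with the red points filled for Tdrd5, Piwil2 and Mov10l1 in Meis1 KO.

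In the Meis1 knockout no member was called against WT, where 1.80% of genes were, and none had an unadjusted p under 0.05 or was called by DESeq2, where 19.3% and 9.06% of genes were. Piwil2 was at 20.6, 34.0, 23.5 and 29.4 CPM and Mael at 6.95, 15.1, 9.01 and 10.1 CPM, both between WT replicate 1 (2.57 and 0.324 CPM in this table) and WT replicates 2 and 3 (44.3 and 51.6 CPM, and 16.5 and 20.1 CPM). Mov10l1 was at 9.05, 19.4, 13.4 and 15.4 CPM in the KO against 0.324, 22.9 and 29.9 CPM in WT, and Asz1 at 5.59, 10.6, 6.41 and 9.04 CPM against 0.243, 9.80 and 12.8 CPM. In both genes the 4 KO libraries lay between WT replicate 1 and the other WT libraries or, for Asz1 in KO replicate 2, among the latter. Without WT replicate 1 all 10 members had negative log2 fold changes with a median of −0.59, and 3 were called lower: Tdrd5 (−1.25, SE 0.20, adjusted p 0.0123), Piwil2 (−0.83, SE 0.17, adjusted p 0.0193) and Mov10l1 (−0.88, SE 0.24, adjusted p 0.0439). In that fit 12.9% of all genes were called, and 6.56% were called lower. Tdrd5 was at 10.9, 17.5, 13.48 and 14.6 CPM in the KO and at 2.11, 25.8 and 41.5 CPM in WT. The 8 germ-cell markers were lower in the KO too, at 335 to 633 CPM against 662 and 959 CPM in WT replicates 2 and 3, with Ddx4 at 49.7 to 102 CPM against 87.5 and 147 CPM. Counted against Ddx4, as described next, no member was called in the KO, where 0.0476% of genes were, and without WT replicate 1 the fold change of Tdrd5 was −0.50 (adjusted p 0.342).

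To set each member against the germ-cell RNA of its own library, reads were expressed per 100 Ddx4 reads, and the same edgeR test was run with library sizes in proportion to Ddx4. On this scale the median of all genes was −3.08, −3.30, −2.51 and −3.72 log2 units in Δ306, Δ225, Δ104 and Δ93 against WT, since WT replicate 1 has so little Ddx4, and 73.0%, 84.8%, 69.0% and 87.2% of all genes were called. Against that background 0 of 10 members were called in Δ306 and Δ104, 1 in Δ225 (Pld6, −2.28, SE 0.86, adjusted p 0.0116) and 2 in Δ93 (Tdrd1, −1.99, adjusted p 0.0186; Pld6, −2.01, adjusted p 0.0246). Tdrd1 and Pld6 are the members with the highest share left in WT replicate 1, at 101 and 40.0 reads per 100 Ddx4 reads there, against 9.36 to 11.4 and 3.54 to 5.95 in the other WT libraries. In Δ306 and Δ104 against WT 1 and 0 members had an unadjusted p under 0.05 on this scale, where 76.2% and 73.5% of all genes were, and the limma-trend test called none. No member was called on this scale without WT replicate 1. Of 23763 genes tested, 0, 2, 0 and 329 were called in Δ306, Δ225, Δ104 and Δ93. In Δ93 1 member then had an unadjusted p under 0.05, where 14.1% of all genes did. In the other 3 deletions 0 members did, beside 1206, 439 and 1142 of all genes in Δ306, Δ225 and Δ104.

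In 2 libraries with high members, their share per Ddx4 read was high as well. Δ225 replicate 2 had 12.7 Piwil4, 11.5 Tdrd9, 5.95 Gtsf1, 70.4 Mael and 77.6 Tdrd5 reads per 100 Ddx4 reads, against medians of 2.10, 2.11, 0.468, 18.0 and 35.5 in Δ225. Δ93 replicate 4 had 86.2 Mael, 66.6 Mov10l1, 7.37 Tdrd9 and 4.75 Gtsf1 reads, against medians of 33.2, 34.9, 2.90 and 0.955 in Δ93, but the lowest Tdrd5 (8.31) and Tdrd1 (6.35) of its group. Piwil2 stayed within 30.5 to 54.2 reads per 100 Ddx4 reads in 20 of the 22 libraries, with WT replicate 1 at 55.9 and Δ225 replicate 1 at 15.2.

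**Figure D4:**
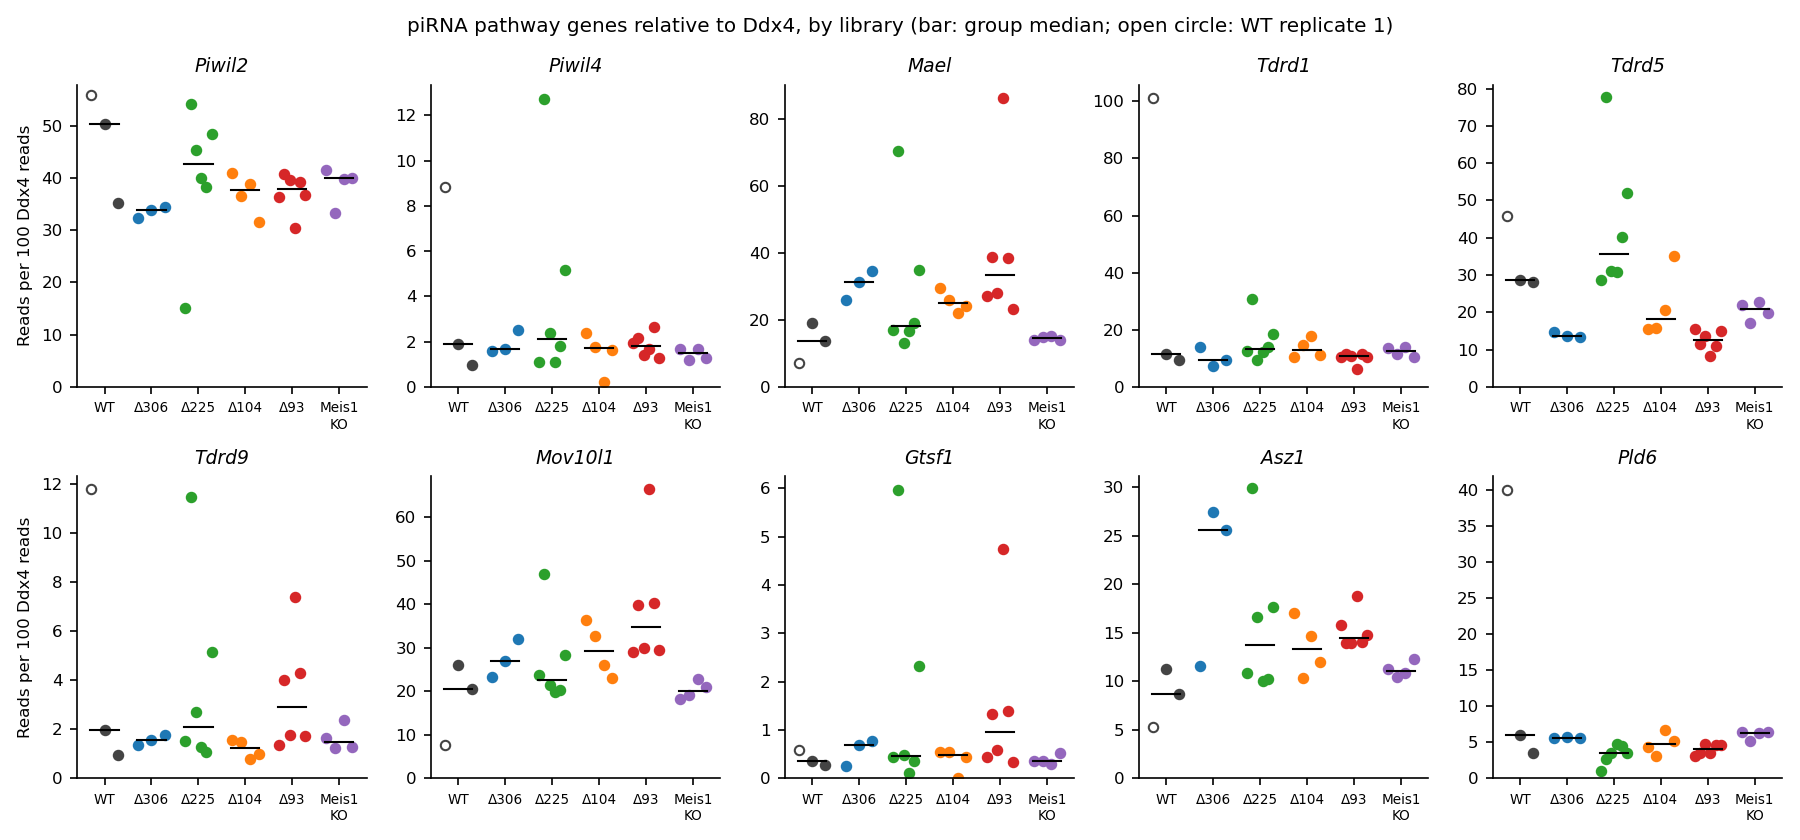
Reads of each of the 10 genes per 100 Ddx4 reads in every library, by group (points: libraries, bar: group median, open circle: WT replicate 1). Δ225 replicate 2 and Δ93 replicate 4 are the high points of their groups in Mael, Tdrd9 and Gtsf1, and Tdrd5 is the panel in which the Δ225 and Δ93 points do not overlap.

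Between deletions, Tdrd5 was the member called. It was higher in Δ225 than in Δ93 by 1.66 log2 units (SE 0.54, adjusted p 0.0347, edgeR), and it was the 1 member of 10 called in this comparison, where 20.8% of all genes were called. The other 9 members ranged from −0.69 for Mov10l1 to 1.14 for Piwil4, with adjusted p of 0.188 or more. DESeq2 gave 1.68 (adjusted p 0.00740) and the authors' deposited table gave 1.68 (adjusted p 0.00902), with 25.9% and 21.3% of genes called. The call was lost without Δ225 replicate 2 (1.19, adjusted p 0.117) or replicate 6 (1.58, adjusted p 0.0551), without Δ93 replicate 2, 3, 4 or 5 (adjusted p 0.0558 to 0.0754), with Δ225 replicate 2 and Δ93 replicate 4 both left out (1.11, adjusted p 0.200), and without the 4 libraries with almost no Ddx3y (1.61, adjusted p 0.147). The direction was the same in every one of these fits.

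Per 100 Ddx4 reads, Δ225 and Δ93 did not overlap in Tdrd5, the 1 member of 10 for which this was so, against 5.09% of all genes tested. The 6 Δ225 libraries had 28.7, 77.6, 30.9, 30.8, 40.1 and 51.9 Tdrd5 reads per 100 Ddx4 reads, and the 6 Δ93 libraries 15.6, 11.4, 13.7, 8.31, 11.0 and 15.1. WT replicates 2 and 3 had 28.8 and 28.1 and WT replicate 1, with 78 Tdrd5 and 170 Ddx4 reads, had 45.9. The Δ306 libraries had 14.7, 13.7 and 13.4, at the level of Δ93, and the Δ104 libraries 15.4, 15.7, 20.7 and 35.2. The mean log2 ratio was higher in Δ225 than in Δ93 by 1.73 (−1.30 ± 0.56 against −3.03 ± 0.34, SD, n = 6 and 6), with a two-sided exact permutation p of 0.00216, which is the smallest that 6 against 6 libraries can give and is not adjusted for the 10 members compared. Of the other members only Tdrd1 had a p under 0.05 in this test (higher by 0.59, exact permutation p 0.0433, groups overlapping), and the rest lay between 0.0671 for Mov10l1 and 0.976 for Piwil2. The edgeR fit scaled to Ddx4 gave 1.79 for Tdrd5 (SE 0.67, adjusted p 0.184), which was not called, where 2.30% of all genes were and the median of all genes was 0.46.

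**Figure D5:**
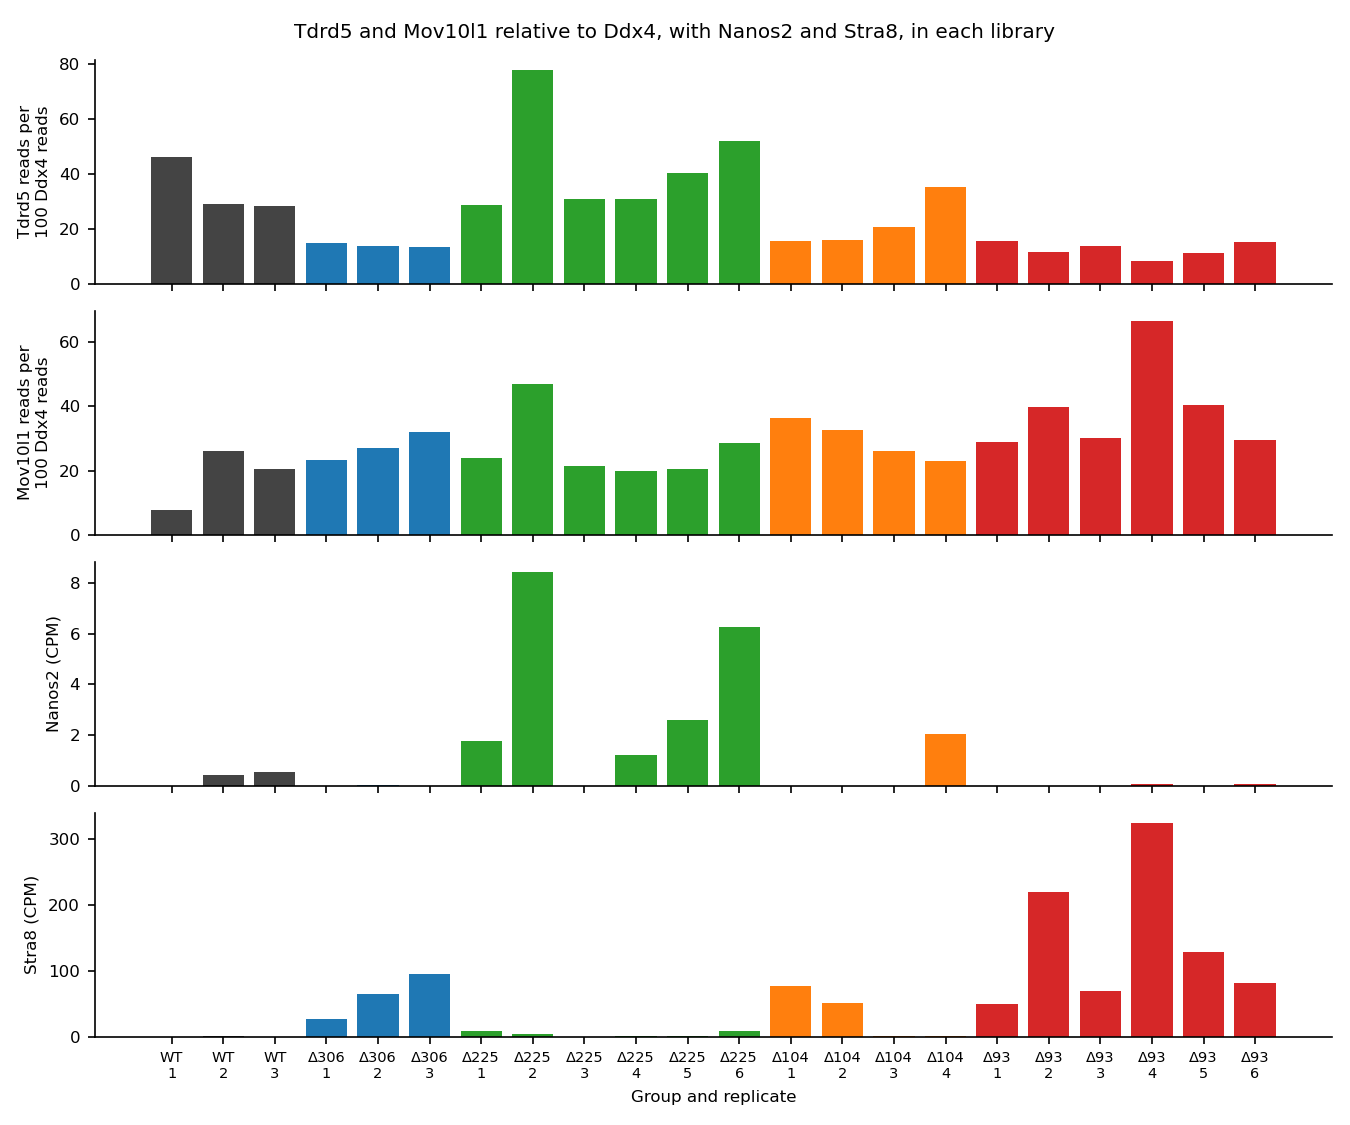
Tdrd5 and Mov10l1 reads per 100 Ddx4 reads (upper panels) and Nanos2 and Stra8 in CPM (lower panels) in each library of the deletion table. Bars start at 0, and Tdrd5 per Ddx4 is low in all Δ306 and Δ93 libraries (8.31 to 15.6) and in 2 of 4 Δ104 libraries, the libraries in which Stra8 is at 27.1 CPM or more.

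The libraries were split by Stra8, and the 2 sides did not overlap in Tdrd5 per Ddx4. Nanos2 followed this split except in the 3 libraries with the least Ddx4. The 11 libraries with Stra8 at 27.1 to 324 CPM were those of Δ306 and Δ93 and Δ104 replicates 1 and 2. They had 8.31 to 15.7 Tdrd5 reads per 100 Ddx4 reads and Nanos2 at 0 to 0.0531 CPM. The other 11 had Stra8 at 0 to 9.27 CPM and 20.7 to 77.6 Tdrd5 reads per 100 Ddx4 reads. Nanos2 was at 0.427 to 8.42 CPM in 8 of them and at 0 in 3 (WT replicate 1, Δ225 replicate 3 and Δ104 replicate 3). Those 3 had the least Ddx4 in the deletion table, at 4.27, 59.0 and 29.2 CPM. Of these 11 libraries, Δ104 replicate 4 had 35.2 Tdrd5 reads per 100 Ddx4 reads and Nanos2 at 2.04 CPM. It had the Sertoli gene Amh at 1166 CPM and the pre-granulosa gene Foxl2 at 1.22 CPM. The 3 other Δ104 libraries had Amh at 0.361, 155 and 489 CPM and Foxl2 at 77.0, 40.5 and 13.0 CPM. The sum of the 9 meiotic markers did not follow this split in Δ225 replicate 1. That library had 28.7 Tdrd5 reads per 100 Ddx4 reads and a sum of 561 CPM, above the 212 to 471 CPM of Δ306. The split by Stra8 was read off the values and was not tested.

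In the remaining comparisons of deletions no member was called by edgeR. Δ225 against Δ306 came closest, with Tdrd5 at 2.13 (SE 0.72, adjusted p 0.0559) and Tdrd1 at 1.26 (SE 0.54, adjusted p 0.128), where 13.2% of all genes were called. DESeq2 (2.15, adjusted p 0.00698) and the authors' deposited table (2.15, adjusted p 0.00810) called Tdrd5 here, with 18.9% and 16.2% of genes called, and without Δ225 replicate 3 edgeR called Tdrd5 (2.32, adjusted p 0.0331) and Tdrd1 (1.47, adjusted p 0.0433). The share of all genes called without Δ225 replicate 3 is not given here. Δ225 against Δ104 had 4 members at an unadjusted p under 0.05, where 10.6% of all genes were, and Δ93 against Δ104 had 1, where 14.5% were. At an adjusted p under 0.05, 0.645% and 0.0523% of all genes were called there. Δ104 and Δ93 against Δ306 had none, where 11.1% and 9.0% of all genes were, with 0.0654% and 0.0785% called. DESeq2 called no member in these 4 comparisons, where it called 1.99% of all genes for Δ225 against Δ104, 2.24% for Δ93 against Δ104, 1.57% for Δ104 against Δ306 and 0.719% for Δ93 against Δ306. Relative to Ddx4 no member was called in any of the 5 either, where 0.371% of genes were called for Δ225 against Δ306, 0.118% for Δ225 against Δ104, 0% for Δ104 against Δ306, 0.0479% for Δ93 against Δ306 and 1.12% for Δ93 against Δ104. The limma-trend test on the log2 ratio called none of them, and in the Ddx4-scaled fits no member reached an unadjusted p under 0.05 in these 5 comparisons, where 2.87% to 22.2% of all genes did. Without WT replicate 1 and Δ104 replicate 3, 2 members in Δ225 against Δ104 and 0 in Δ93 against Δ104 did so with TMM. Of 23768 genes tested, 2786 and 1754 did. Scaled to Ddx4, 2 and 1 members did, beside 1155 and 1177 of all genes.

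Other genes of the pathway were followed as a list of 22, of which 21 passed the filter on low counts. In Δ93 against WT 5 were called: Btbd18 (3.04, SE 0.88, adjusted p 0.0256) and Mybl1 (−0.95, SE 0.29, adjusted p 0.0313), transcriptional regulators of piRNA loci, Tex15 (2.72, SE 0.70, adjusted p 0.0137), a partner of Piwil4, the mitochondrial protein Gpat2 (2.58, SE 0.84, adjusted p 0.0441), and Tdrd7 (1.33, SE 0.33, adjusted p 0.0115). In Δ225 against Δ93 the list again had 5 called. Spocd1 (3.33, SE 0.96, adjusted p 0.0175), a Piwil4 partner in DNA methylation, Morc1 (2.59, SE 0.76, adjusted p 0.0198), a silencing ATPase, and Mybl1 (1.04, SE 0.25, adjusted p 0.00486) were higher, and Gpat2 (−1.94, SE 0.62, adjusted p 0.0310) and Tdrd7 (−0.84, SE 0.26, adjusted p 0.0258) lower. Mybl1 was also higher in Δ225 than in Δ306 (0.97, SE 0.31, adjusted p 0.0429). Counts of 5 of 21 stand beside 14.1% and 20.8% of all genes called in the first 2 of these comparisons.

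The libraries behind these calls differed. Mybl1 was even within groups, at 26.6 to 63.8 CPM in Δ225 and 13.3 to 23.3 CPM in Δ93, with no overlap, as for 11.0% of all genes. In WT replicate 1, with little germ-cell RNA, Mybl1 was still at 31.8 CPM, against 43.9 and 34.9 CPM in WT replicates 2 and 3. Tdrd7 was at 14.7 CPM there against 21.3 and 25.3 CPM, and Tex15 at 8.82 against 20.8 and 21.2 CPM. Gpat2 (2.14 against 21.8 and 25.8 CPM) and Btbd18 (0.251 against 2.51 and 2.77 CPM) were far lower there. Which cells these reads came from was not tested. Spocd1 and Morc1 were high in the same Δ225 libraries as Piwil4, with 9.29 and 62.4 CPM in replicate 2 and 2.32 and 17.3 CPM in replicate 6, while Spocd1 was at 0.412 CPM or less in Δ93. Gpat2 was highest in the Δ93 libraries with most Stra8, at 276 CPM in Δ93 replicate 4 and 118 CPM in replicate 2 against 34.9 to 66.0 CPM in the other Δ93 libraries. Without Δ225 replicate 2 the calls of Morc1 (1.44) and Spocd1 (1.66) in Δ225 against Δ93 were lost, with adjusted p of up to 0.125 and 0.150, while Mybl1 was called with any of the 12 libraries left out. For both Tdrd7 and Gpat2 there, 4 of the 12 libraries each ended the call when left out (replicates 1 and 3 of Δ225, replicates 2 and 4 of Δ93). Against WT, all 5 calls in Δ93 were lost without WT replicate 1 (adjusted p 0.0549 to 0.162), with log2 fold changes of 2.41 for Tex15, 2.53 for Btbd18, 2.07 for Gpat2, 1.14 for Tdrd7 and −1.05 for Mybl1. Mybl1 was also lost in 5 other such fits, Gpat2 in 4, Btbd18 in 2 and Tdrd7 in 1, and Tex15 in none, and Mybl1 in Δ225 against Δ306 was called in 4 of 9 such fits. With both WT replicate 1 and Δ104 replicate 3 left out, 1 of the 22 genes was called lower in Δ306 and 1 in Δ93 against WT. Of 23768 genes tested, 664 and 1677 were called there.

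In the other 8 comparisons edgeR called none of the list, with 5 of its genes at an unadjusted p under 0.05 in Δ306, 9 in Δ225 and 1 in Δ104 against WT, 0 in Meis1 KO, where 20 of the 22 were tested, and 1 to 4 between deletions. Of all genes, 21.9%, 16.1% and 15.7% were under that p in Δ306, Δ225 and Δ104 against WT. In Meis1 KO 19.3% of all genes were, and between these deletions 2065 to 3326 of 22941 genes. Without WT replicate 1, 7 of 21 were called lower in Meis1 KO, beside 6.56% of all genes: Morc1 (−1.09, adjusted p 0.0479), Tdrd12 (−0.97, adjusted p 0.0180), Gpat2 (−0.91, adjusted p 0.0168), Fkbp6, Pnldc1, Tdrd7 and Prmt5 (−0.76 to −0.36). Relative to Ddx4 none of the list was called there. DESeq2 called 2 of the list in Δ225 against WT (Spocd1 and Tex15), 10 in Δ93 against WT, 4 in Δ225 against Δ306 (Morc1, Mybl1, Piwil1 and Spocd1), the same 5 genes as edgeR in Δ225 against Δ93, and 1 in Δ225 against Δ104 (Morc1). The shares of all genes that DESeq2 called were 3.43%, 19.9%, 18.9%, 25.9% and 1.99% in these comparisons.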

How the data were processed

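Polyadenylated RNA of 26 XY gonad samples at embryonic day 13.5 was sequenced from directional NEBNext Ultra II libraries, per the labels' protocols. The authors deposited whole-number counts of reads per gene, in a table of WT and all deletions, a table of WT and Meis1 KO, and a first table of WT and Δ306. The submitters' processing notes name STAR 2.7.10a, featureCounts, Subread, DESeq2 and the build mm10, without their roles. The authors also deposited log2 fold changes and adjusted p-values between the genotypes, with headers in the layout DESeq2 writes, which were used for comparison only. No sample column was left out (0), and WT counts were identical in the first and Meis1 tables.

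The test was edgeR 4.0.16's quasi-likelihood F test under R 4.3.3 (filterByExpr, TMM, glmQLFit, glmQLFTest, Benjamini-Hochberg over all genes, called at an adjusted p under 0.05). One fit held the 22 libraries of the deletion table (22941 genes, 17 residual degrees of freedom) and another the 7 libraries of the Meis1 table (16791 genes, 5 degrees of freedom), for 11 comparisons. The second scaling made library sizes proportional to the Ddx4 count. Ratios to Ddx4 were compared in Δ225 and Δ93 by an exact permutation test in scipy 1.17.1 (pseudocount 0.5 on the log2 scale). The fits were tested on simulated counts. Correlations used log2 CPM with a prior count of 2. Per-kilobase levels used the union of exons in GENCODE M21. All replicate pairs differed by more than counting error, with chi-square per degree of freedom from 9.65 to 343 over 48 pairs.

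The members, the other lists and the tests were chosen with earlier results of these data known. The text names all 10 members, the germ-cell reference genes Ddx4, Dazl and Dnd1, other pathway genes where called, and the 5 genes most like the members' mean profile. The germ-fate, somatic and sex-linked genes were named for the libraries that stood apart, after their values were seen. Alternatives were RLE or no composition factor, no low-count filter, DESeq2 1.42.0, limma-trend (limma 3.58.1) on the ratio, other reference genes, a fit of the 2 groups alone, the replicate number as a block, the separate WT and Δ306 table, and each library left out in turn. Leaving out sets of libraries and the permutation test were added after seeing the data. Promoter windows of the members and of all genes came from RefSeq, and Piwil2 had none there.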

Additional observations from a re-analysis of the deposited data

Results flagged for a closer look

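In groups of 4 to 6 libraries, a library was singled out when its gap to the nearest other library took more of the group's range than Dixon's 95% critical value allows. Over the 10 genes in Δ225, Δ104, Δ93 and Meis1 KO, on CPM and on reads per 100 Ddx4 reads, 12 of 80 groups had such a library, where chance gives about 1 in 20 and the genes are not independent. Δ225 had 6 of them, Δ93 5, Meis1 KO 1 and Δ104 0.

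In Δ225 all 6 were replicate 2, the highest of its group. It had 26.7 CPM of Piwil4 (next 8.64), 148 CPM of Mael (next 58.4), 24.0 CPM of Tdrd9 (next 8.64) and 12.5 CPM of Gtsf1 (next 3.91), and per 100 Ddx4 reads 12.7 of Piwil4 (next 5.15) and 46.9 of Mov10l1 (next 28.4).

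In Δ93 all 5 were replicate 4. It was highest in Gtsf1 with 8.81 CPM (next 3.08), and per 100 Ddx4 reads in Mael with 86.2 (next 38.7), Mov10l1 with 66.6 (next 40.3) and Gtsf1 with 4.75 (next 1.396). It was lowest in Tdrd1 with 6.35 reads per 100 Ddx4 reads (next 10.3). Pld6 was lowest in Meis1 KO replicate 2, with 5.16 reads per 100 Ddx4 reads (next 6.23), where the 4 libraries span a narrow range.

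Tdrd5 was called between 2 deletions, being higher in Δ225 than in Δ93 by 1.66 log2 units (edgeR adjusted p 0.0347). It was the 1 member of 10 called there, where 20.8% of all genes were. The call was lost with some single libraries left out (edgeR adjusted p up to 0.117). Relative to Ddx4 it was not called (edgeR adjusted p 0.184).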

How the results depend on the processing

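Deviations of libraries with the same number correlated at −0.307 to 0.481 over 35 pairs in the deletion table (9 above 0.1). In the Meis1 table they correlated at −0.0184 to 0.375 (median 0.326, 2 of 3 above 0.1), against a median of −0.189 for different numbers. Not every pair was above 0.1 in either table, so the number was not taken as a pairing. With the replicate block the members called were 0 in Δ225 against Δ93 (Tdrd5 1.58, adjusted p 0.0602) and, relative to Ddx4, 0 in Δ225 and 0 in Δ93 against WT, while Piwil2 and Mov10l1 in Meis1 KO turned to 0.28 and 0.47. Other counts were the same with the block.

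DESeq2 called 4 members in Δ225 against WT, 5 in Δ93 against WT and 1 in Δ225 against Δ306, and the fit of the 2 groups alone called 3 in Δ93 against WT (Gtsf1, Piwil4 and Tdrd9). No member was called in Δ225 against Δ93 with Δ225 replicate 2 and Δ93 replicate 4 left out (0) or with the 4 libraries with least Ddx3y left out (0). Relative to Ddx4, limma-trend called 0 in Δ225 and 0 in Δ93 against WT, as did leaving out WT replicate 1 and Δ104 replicate 3 together (0 and 0), and leaving out the 4 libraries with least Ddx3y gave 0 in Δ93. With the geometric mean of Ddx4, Dazl and Dnd1 as reference, Gtsf1 and Mael were called higher in Δ93 than in WT (2 members) in place of Tdrd1 and Pld6 lower. The share of all genes called is not given here for this reference or for the fit of the 2 groups alone, so these counts have no background beside them. Leaving out WT replicate 1 and Δ104 replicate 3 turned Tdrd1 relative to Ddx4 to 0.64 in Δ225 and 0.21 in Δ104 against WT.

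With each library left out in turn the members called ran from 0 to 2 in Δ225 against Δ306, 0 to 1 in Δ225 against Δ93 and 0 to 3 in Meis1 KO. Relative to Ddx4 and against WT they ran from 0 to 1 in Δ306, 0 to 2 in Δ225, 0 to 3 in Δ104 and 0 to 3 in Δ93. With all libraries, 69.0% to 87.2% of all genes were called on that scale. The shares in most fits with a library left out are not given here, so these ranges have no background beside them. Fold changes turned in sign for Piwil2 (−0.83 to 0.19), Tdrd5 (−1.25 to 0.0078) and Mov10l1 (−0.88 to 0.30) in Meis1 KO without WT replicate 3, and relative to Ddx4 for Tdrd1 in Δ225 (−1.78 to 0.64) and Δ104 (−2.05 to 0.37) and Pld6 in Δ104 (−2.23 to 0.024) without WT replicate 1. The cause was not tested. All other counts of called members stayed within 1.5 times under the alternatives run. Depth limits Gtsf1 most, with 0 counts in Δ104 replicate 3 and 1 in WT replicate 1.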

Other observations

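Outside the pathway lists, the 5 genes whose log2 CPM followed the mean profile of the 10 members most closely over the 22 libraries of the deletion table were Bend2 (r = 0.956), Tcfl5 (0.954), Xlr3a (0.950), Xlr3c (0.950) and Pnma6e (0.948), as a description with no test. Xlr3a and Xlr3c are near-identical copies, so reads may be split between them. After the group means were subtracted r was 0.930 to 0.945 for these 5 genes, so the likeness is also found among libraries of the same group. Among genes outside the pathway lists and the reference genes, Tcfl5 ranked first by Spearman correlation (0.942), and Bend2 ranked 13. Of the other pathway genes, Exd1 (0.965), Rnf17 (0.939), Stk31 (0.935) and Fkbp6 (0.935) followed the profile most closely, while Dnmt3a (−0.516), Dnmt3c (−0.309) and Mybl1 (−0.146) did not. All these libraries share the contrast between the WT library with little germ-cell RNA and the rest.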
